A study of Homo sapiens with 6 samples.

Results

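The 10 genes described are the origin recognition complex (ORC) genes ORC1 to ORC6, the loading factor genes CDC6 and CDT1, the geminin gene GMNN and DBF4, taken by symbol from the 15794 human genes of the authors' deposited comparison. All 10 had a row. The RNA came from eHAP cells, a haploid human line derived from the leukaemia line HAP1, made to express Cas9, in 2 groups of 3 biological replicates. The TFDP1 knockout group received a plasmid with guide RNAs against TFDP1, and the control group, labelled wild-type, is recorded with no knocked-out gene. Transfected cells of both groups were kept in puromycin between 24 and 72 h and collected on day 5, and no cloning step is named, so each sample is a population of edited or control cells. Each RNA preparation mixed 500000 eHAP cells with 10000 fly S2 cells. TFDP1 encodes DP1, the subunit with which most E2F factors bind DNA.

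Before DNA can be copied, ORC marks origins in G1 phase, CDC6 joins it, and CDT1 brings in the MCM helicase, which is loaded in an inactive form; this loading is called licensing. Geminin binds CDT1 from S phase on and blocks further loading, and the kinase CDC7 with its activating subunit DBF4 then helps to fire the licensed origins. ORC1, CDC6 and CDT1 are textbook targets of E2F factors, which switch on genes at the passage into S phase.

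The authors' table gives 1 comparison, with a log2 fold change, a mean level over both groups in log2 CPM (counts scaled to library size) and an adjusted p from a likelihood ratio test for each gene. Values per replicate and library depths were not used here, so their spread cannot be shown. The table does not name the numerator of its fold changes. TFDP1 (ENSG00000198176.12, chromosome 13, 113584721 to 113641470 of GRCh38, plus strand) had a log2 fold change of 1.17 at 226 CPM (adjusted p = 1.08e-283), which does not settle the direction, since small Cas9 deletions need not lower a transcript. A positive value below therefore means a higher level wherever TFDP1 transcript was higher, and whether that is the knockout or the control group is unknown. Errors are approximate standard errors, obtained as the absolute log2 fold change over the root of the likelihood ratio. As a check of the cell type, 5 of 9 blood markers had a row, at 0.177 to 15.3 CPM and 22.2 CPM in sum. PTPRC, SPN, GATA1 and MPO had none. The sums were 179 CPM for neuronal markers (TUBB3 at 171 CPM), 81.3 CPM for fibroblast markers and 13.3 CPM for epithelial markers. These levels alone thus did not mark the cells as blood cells. Markers of blood and other cell types moved in both directions in the same comparison. On the log2 scale SPARC was at -3.47, THY1 at -2.66, COL1A1 at -0.28, KRT8 at -2.94, EPCAM at -4.18, TUBB3 at -1.13, KIT at -0.98 and TAL1 at -1.20, while SYP was at 1.71 and ITGA2B at 0.49, all called at the authors' adjusted p under 0.05. Their part in the values below was not tested.

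Of the 10 genes, 5 were positive at the authors' adjusted p under 0.05, 0 were negative and 5 were not called. The positive genes were GMNN, ORC1, DBF4, CDT1 and CDC6, with changes of 1.17-fold to 1.33-fold, and the uncalled ones were ORC2, ORC3, ORC4, ORC5 and ORC6. Among all 15794 genes 39.5% were called, 17.3% as positive and 22.2% as negative. Calls were commoner at the level of these genes: of the 3403 genes between 54.5 and 156 CPM, the range the 10 span, 52.4% were called, 25.4% positive and 26.9% negative. The share called, 50% of the 10 genes, was thus near the background of that range, while the calls lay on the positive side. The median log2 fold change of the 10 genes was 0.18, against -0.0041 for the genes of that range and -0.025 for all genes. By unadjusted p, 6 of the 10 genes lay under 0.05, the sixth being ORC6. None of the 10 reached 1.5-fold, and the changes were small beside the 2.25-fold of TFDP1.

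**Figure D1:**
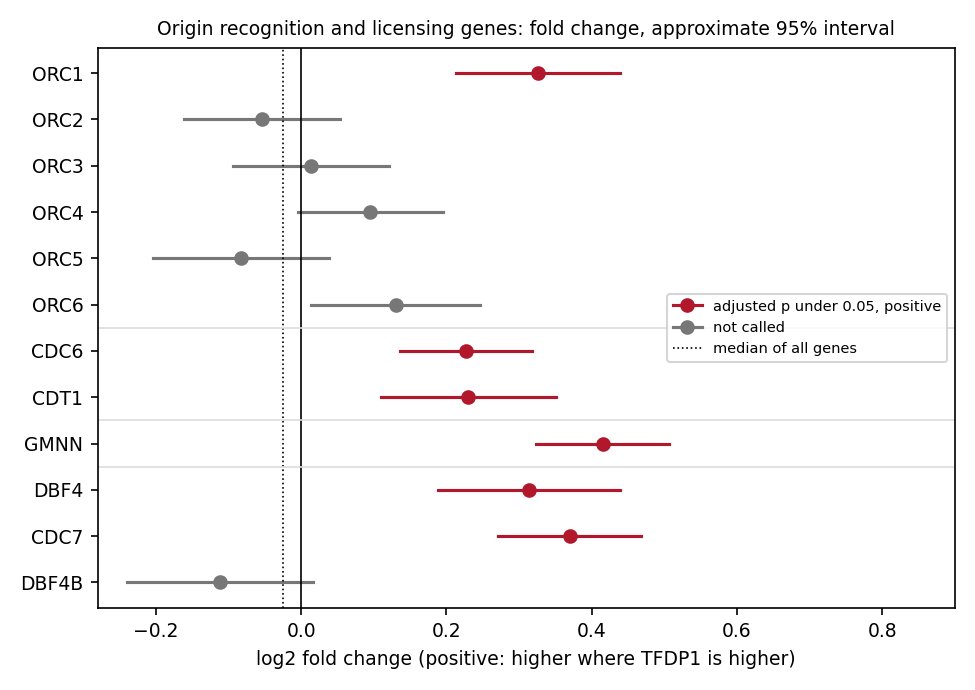
Log2 fold change (horizontal axis, positive where a gene and TFDP1 were higher together) of the 10 genes, with CDC7 and DBF4B for comparison. Points are the authors' values, lines approximate 95% intervals and the dotted line the median of all genes at -0.025. ORC1, CDC6, CDT1, GMNN, DBF4 and CDC7 lie between 0.23 and 0.42, and ORC2 to ORC6 between -0.083 and 0.13.

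ORC1, the ATPase subunit whose level cycles in human cells, differed more than the other ORC genes. ORC1 (ENSG00000085840.12, chromosome 1, 52372829 to 52404459, minus strand) had a log2 fold change of 0.33 ± 0.057 (approximate SE), or 1.25-fold, at 88.2 CPM (adjusted p = 1.47e-07). Taking the mean as the average of both groups, this corresponds to 98.1 CPM in the group with more TFDP1 and 78.3 CPM in the other. Only 7.23% of the genes in the level range had a higher fold change. The remaining subunits were not called, and the 95% intervals of ORC2 to ORC5 held 0. That of ORC6, from 0.014 to 0.25 on the log2 scale, did not.

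ORC2 and ORC3, which form the structural core of the complex, showed almost equal levels in both groups. ORC2 (ENSG00000115942.8, chromosome 2, 200908973 to 200963680, minus strand) was at -0.054 ± 0.055, with levels of 56.1 CPM in the group with more TFDP1 and 58.3 CPM in the other. ORC3 (ENSG00000135336.14, chromosome 6, 87590067 to 87667453, plus strand) was at 0.014 ± 0.055 on the log2 scale, with 68.1 CPM in the group with more TFDP1 and 67.4 CPM in the other. Their adjusted p values were 0.503 and 0.883. The interval of ORC3 ran from 0.937-fold to 1.09-fold, and that of ORC2 from 0.894-fold to 1.04-fold.

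ORC4 and ORC5 carry the ATPase fold, as ORC1 does. ORC4 (ENSG00000115947.13, chromosome 2, 147930397 to 148021604, minus strand) was at 0.095 ± 0.051 on the log2 scale at 68.6 CPM (adjusted p = 0.143). ORC5 (ENSG00000164815.10, chromosome 7, 104126341 to 104208047, minus strand) was at -0.083 ± 0.062 at 54.5 CPM (adjusted p = 0.326). ORC6 (ENSG00000091651.8, chromosome 16, 46689643 to 46698394, plus strand), the smallest and least conserved subunit, was at 0.13 ± 0.059 at 76.7 CPM and came nearest to the threshold (adjusted p = 0.0773). ORC4 and ORC6 were called positive after re-centring on the median gene (adjusted p = 0.0443 and 0.0245). That adjustment ran over 15794 genes, whereas the authors' adjusted p implies 18391 rows. Adjusting the authors' p over the 15794 genes, without re-centring, gave 0.124 for ORC4 and 0.0665 for ORC6. The call of ORC4, close to the threshold, therefore cannot be credited to centring alone. After correction for transcript length and GC content ORC4 turned to -0.076, while ORC2 was called negative at -0.16 (adjusted p = 0.0122).

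The difference between ORC1 and each of its partners was larger than its approximate error. ORC1 minus ORC5 was 0.41 on the log2 scale (95% interval 0.24 to 0.57), ORC1 minus ORC2 0.38 (0.22 to 0.54) and ORC1 minus ORC3 0.31 (0.16 to 0.47). ORC1 minus ORC4 was 0.23 (0.081 to 0.38). The smallest, ORC1 minus ORC6, was 0.20 (0.034 to 0.36). These 5 intervals carry no p and treat the genes as independent, although they come from the same libraries.

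The promoters give the sequence context of this split. RefSeq windows of 300 bases on GRCh38.p14, from 250 bases before to 50 after each start site, were found for all 10 genes, 12 windows in all, and were searched on both strands. The E2F-type site was taken as TTTGGCGC, TTTCGCGC, TTTCCCGC or TTTGCCGC. It was present in 4 of the 10 genes, CDC6, CDT1, GMNN and ORC3, against 3.99% of all 27305 genes with a window (3.31% of windows). Here and below, these background genes were taken whatever their level or GC content, so they are not matched to the 10 genes. Both forms with 7 letters, chosen after the sequences were seen, were also counted. Without the last base the site was found in the same 4 genes, against 10.4% of all genes, and without the first base in these and ORC1, against 15.3%. The 7-letter forms lie within the 8-letter ones and overlap them. A match is a description of letters and does not show binding.

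The windows below are the 120 bases before the start site, 5′ to 3′, with every match to the 8-letter or 7-letter forms in capitals. ORC1 (chr1:52404424-52404543, minus strand) and ORC3 (chr6:87590015-87590134, plus strand) are shown because they are the ORC genes with a match and yet differ in fold change:
ORC1: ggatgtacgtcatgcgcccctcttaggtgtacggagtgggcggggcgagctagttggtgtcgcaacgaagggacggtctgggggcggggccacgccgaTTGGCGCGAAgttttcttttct
ORC3: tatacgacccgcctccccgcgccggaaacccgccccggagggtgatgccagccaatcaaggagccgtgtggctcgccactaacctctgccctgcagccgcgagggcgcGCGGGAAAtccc

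In ORC1 the capitals hold a match in each orientation, TTGGCGC and the reverse complement of TTCGCGC, within bases -22 to -13, counting the start site as base 0. ORC3 held the 8-letter TTTCCCGC on the opposite strand at -12 to -5, although its fold change was 0.014. A site was therefore present with and without a call.

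The loading factors were positive by almost equal amounts. CDC6 (ENSG00000094804.10, chromosome 17, 40287633 to 40304657, plus strand), the ATPase that joins ORC to recruit the helicase, was at 0.23 ± 0.046 on the log2 scale, or 1.17-fold (adjusted p = 7.91e-06). Its levels were 135 CPM in the group with more TFDP1 and 115 CPM in the other. CDT1 (ENSG00000167513.8, chromosome 16, 88803213 to 88809258, plus strand), which carries the helicase to the origin, was at 0.23 ± 0.061, also 1.17-fold (adjusted p = 9.07e-04). Its levels were 169 CPM in the group with more TFDP1 and 144 CPM in the other. CDC6 minus CDT1 was -0.0037 on the log2 scale with an interval from -0.15 to 0.15, which holds 0 but also differences of that size. With length and GC trends removed the difference was -0.22, with CDC6 at 0.16 and CDT1 at 0.38. CDT1 is the most GC-rich of the 10, at 64.9% of its longest transcript, and CDC6 has 45.5%.

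Their promoters, shown because each holds more than 1 match, are CDC6 (chr17:40287759-40287878, plus strand) and CDT1 (chr16:88803669-88803788, plus strand):
CDC6: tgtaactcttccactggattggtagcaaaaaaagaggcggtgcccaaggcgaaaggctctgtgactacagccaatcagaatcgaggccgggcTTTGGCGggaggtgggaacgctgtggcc
CDT1: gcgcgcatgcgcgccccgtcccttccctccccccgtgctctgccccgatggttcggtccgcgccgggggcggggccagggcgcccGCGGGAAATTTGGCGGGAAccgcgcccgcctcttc

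In CDT1 the capitals hold the 8-letter TTTCCCGC on the opposite strand at -35 to -28, followed by TTTGGCG at -27 to -21. The 7-letter TTCCCGC on the opposite strand at -23 to -17 overlaps the latter. In CDC6 the 7-letter TTTGGCG lies at -28 to -22. The 8-letter TTTGGCGC of CDC6 lies just inside the transcript, at 7 to 14, and is outside the stretch shown.

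GMNN had the largest change of the 10 genes. Geminin is the inhibitor that holds CDT1 away from the helicase after licensing, so an inhibitor and its target were positive together. GMNN (ENSG00000112312.9, chromosome 6, 24774931 to 24786099, plus strand) was at 0.42 ± 0.047 on the log2 scale, or 1.33-fold, at 98.2 CPM (adjusted p = 2.35e-17). Its levels were 112 CPM in the group with more TFDP1 and 84.2 CPM in the other. By p it ranked 542 of 15794 genes, and 4.0% of the genes in the level range had a higher fold change. CDT1 minus GMNN was -0.18 (95% interval -0.34 to -0.034), that is, GMNN differed more than CDT1. With length and GC trends removed this difference was -0.037, so its size rests on leaving those trends in.

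GMNN has 2 RefSeq windows, and the E2F-type site lies in the downstream one (chr6:24775293-24775412, plus strand), shown as the promoter of the gene with the largest fold change:
GMNN: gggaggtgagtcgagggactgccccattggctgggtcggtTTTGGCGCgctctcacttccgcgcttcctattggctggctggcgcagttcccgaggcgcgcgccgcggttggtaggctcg

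The site, TTTGGCGC, lies at -80 to -73 between a pair of CCAAT boxes on the opposite strand at -95 to -91 and -51 to -47. CCAAT, the site bound by NF-Y, was found in 6 of the 10 genes (CDC6, GMNN, ORC1, ORC2, ORC3 and ORC6), against 39.7% of all genes. The CHR element (TTTGAA or TTCGAA), known from cell cycle promoters, was found in DBF4 alone, against 19.5% of all genes. CCAAT matches thus occurred in genes with and without a call, and DBF4 was called without any of the E2F-type forms in its window. That window (chr7:87876243-87876542) lies after the GENCODE start of DBF4 at 87876216, so bases before that start were not searched. The same holds for CDT1, whose window (chr16:88803539-88803838) lies after its GENCODE start at 88803213. The downstream window of GMNN (chr6:24775163-24775462), which holds its site, also lies after the GENCODE start at 24774931.

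**Figure D2:**
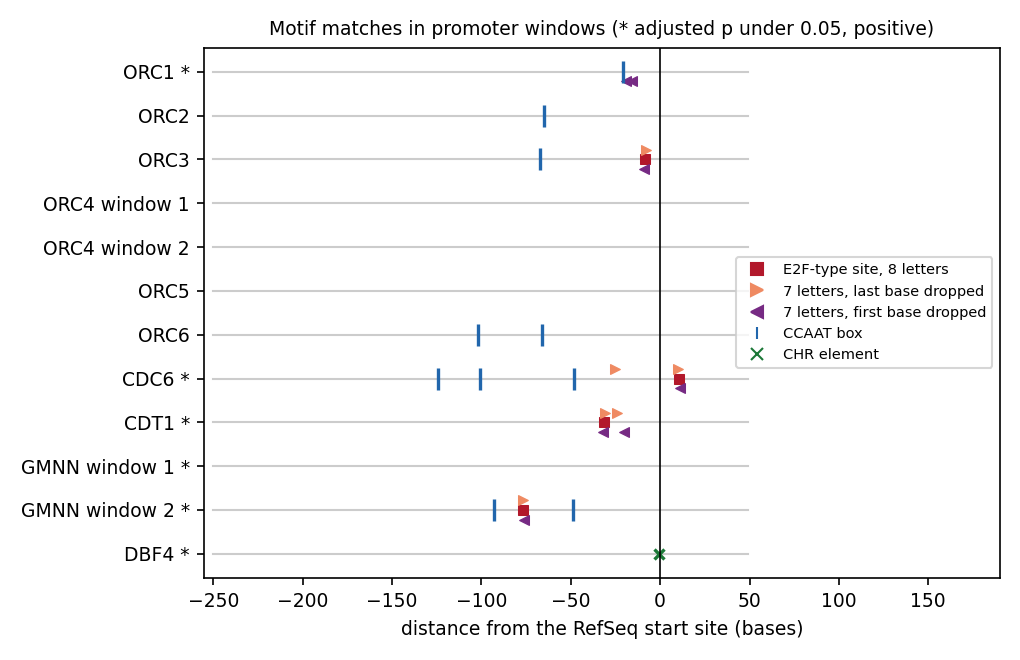
Matches in the 12 RefSeq promoter windows of the 10 genes, by distance from the start site in bases (horizontal axis). Symbols mark the 8-letter and 7-letter E2F-type forms, CCAAT boxes and the CHR element, and an asterisk marks the 5 genes called positive. The 8-letter site stands in CDC6, CDT1, GMNN and ORC3.

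DBF4, the activating subunit of the CDC7 kinase, was positive together with its partner. DBF4 (ENSG00000006634.7, chromosome 7, 87876216 to 87909541, plus strand) was at 0.31 ± 0.064 on the log2 scale, or 1.24-fold (adjusted p = 7.44e-06). Its levels were 90.4 CPM in the group with more TFDP1 and 72.7 CPM in the other. CDC7, the kinase itself, was at 0.37 ± 0.050 and 72.6 CPM (adjusted p = 4.06e-12). DBF4 minus CDC7 was -0.056 with an interval from -0.22 to 0.10, which holds 0. DBF4B, the second activator of CDC7, was at -0.11 ± 0.065 and 48.5 CPM and was not called (adjusted p = 0.189).

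**Figure D3:**
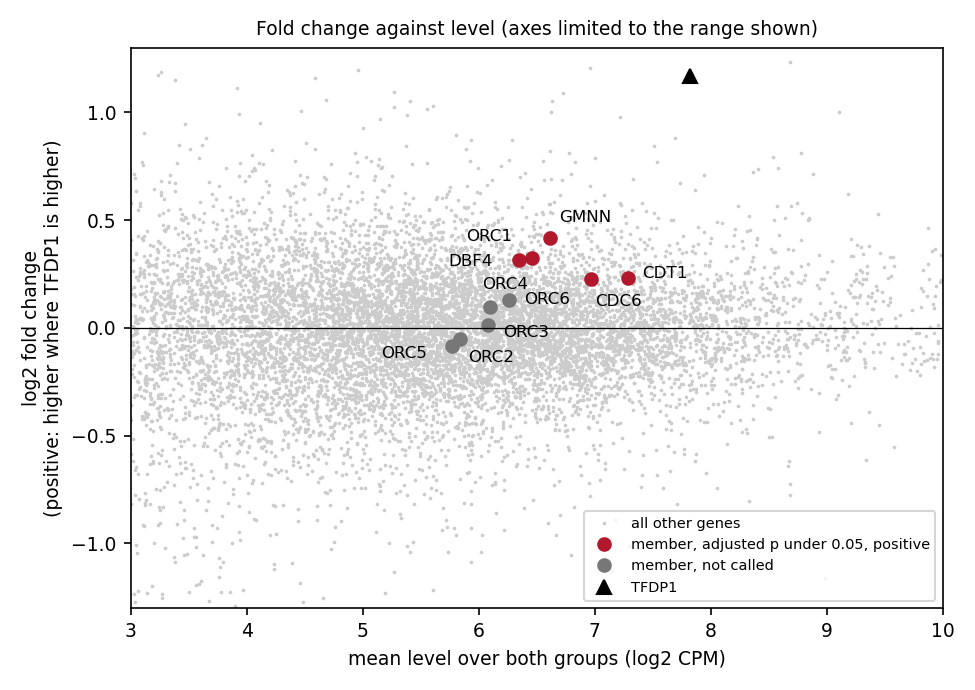
Log2 fold change (vertical axis) against mean level in log2 CPM (horizontal axis) for all genes in grey, the 10 genes as labelled points and TFDP1 as a triangle, with axes limited to the range shown. The 5 called genes lie at 81.6 to 156 CPM, and the 5 uncalled ones at 54.5 to 76.7 CPM.

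All 10 genes lay above the median level of 23.5 CPM. The called ones had the 5 highest values in CPM, which is not corrected for transcript length. The approximate standard error was nonetheless similar in all 10, from 0.046 to 0.064 on the log2 scale. A change had to exceed about 1.06-fold to 1.09-fold to lie beyond 1.96 standard errors in any of them, and the adjusted threshold was higher. Per kb of the longest annotated transcript GMNN was the highest, at 77.8 CPM per kb, followed by CDT1 at 48.2 and ORC6 at 41.8. ORC1 (27.9), ORC3 (27.0), ORC5 (26.7) and CDC6 (26.0) had closely similar levels per kb. DBF4 had 20.9, ORC2 13.3 and ORC4 10.2 CPM per kb, and the median gene with a length had 6.66. This order depends on the transcript taken: with the median transcript length CDT1 was the highest at 212 and ORC1 the lowest at 28.3 CPM per kb. No spread over samples stands behind these levels.

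Several of the genes share a promoter region with a gene on the other strand. Distances and overlaps here use GENCODE positions, which can differ from the RefSeq starts of the promoter windows. PRPF38A, a splicing factor gene whose start lies 105 bases from that of ORC1, was at 0.31 ± 0.043 (adjusted p = 1.00e-11), close to the 0.33 of ORC1. RARS2, a mitochondrial arginyl-tRNA synthetase gene 64 bases from the start of ORC3, was at -0.056 ± 0.059 and was not called, like ORC3. VPS35, a retromer gene 125 bases from ORC6, was positive at 0.32 ± 0.056 (adjusted p = 1.19e-07), whereas ORC6 was not called. SLC25A40, a mitochondrial carrier gene that overlaps DBF4 by 142 bases, was at 0.77 ± 0.090 at 17.2 CPM (adjusted p = 7.57e-16), above the 0.31 of DBF4. MBD5 (0.14 ± 0.13) and ACVR2A (-0.16 ± 0.094), which overlap ORC4 by 594 and 430 bases on the other strand, were not called. No source used here says whether counting used strand, so reads from overlapped stretches of DBF4 and ORC4 cannot be told apart from those of these neighbours. The antisense gene AC005037.1, which overlaps ORC2 by 418 bases, had no row.

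The other genes of the pathway were mostly positive as well, in lists that were chosen with earlier results of these data known. The shares below are therefore descriptions and no independent support. In 6 lists of 61 genes, 58 had a row, and 38 of these were positive, 9 negative and 11 uncalled. Their median log2 fold change was 0.21 and 81.0% were called, against -0.025 and 39.5% among all genes. At or above the median level, with p adjusted over those genes alone, 43 of 53 list genes were called, against 54.6% of all such genes, whose median was -0.0027. Of 10 genes in the helicase list (MCM2 to MCM10 and MCMBP) 8 were positive and 1 negative. That is 80% positive, against 17.3% of all genes and 26.6% of those at or above the median level. Here and below, the share of a list counts genes of any level by the authors' adjusted p. The 26.6% is therefore not a like measure: MCM9, at 20.5 CPM, lies below the median level. Of the 53 list genes at or above that level, with p adjusted alike, 36 were positive and 7 negative. Not all 10 encode subunits of the loaded helicase, which is built of MCM2 to MCM7. Among these, MCM2, MCM3, MCM4 and MCM7 were positive, MCM5 was negative at -0.11 and MCM6 was not called. MCM4 was at 0.50, MCM8 at 0.46 and MCMBP, which binds free MCM subunits, at 0.30. Of 12 helicase activation genes 10 were positive and 1 negative, or 83.3% positive against the same 17.3% and 26.6%. Among the positive ones were GINS1 (0.49), the origin firing factor gene TICRR (0.44) and the checkpoint adaptor gene CLSPN (0.58).

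Of 16 genes that control turnover of CDT1, CDC6 and geminin, 9 were positive, 2 negative and 5 uncalled. That is 56.2% positive, against 17.3% of all genes. At or above the median level, with p adjusted over those genes alone, 26.6% were positive. DTL, the substrate receptor that directs CDT1 to the CUL4 ligase in S phase, was at 0.66 (adjusted p = 2.77e-49). FBXO5, which inhibits the ligase that degrades geminin, was at 0.87 (adjusted p = 3.44e-38). DDB1, the adaptor of the CUL4 ligase, was negative at -0.15. Its adjusted p of 7.67e-84 is uncertain, since its approximate error of 0.0075 was 0.173 times the median of genes at its level. Of 10 kinase and cyclin genes 7 were positive and 2 negative, or 70% positive against the same 17.3% and 26.6%. Genes of this list with the smallest p were CCNE2 (2.30), CDK2 (0.60) and CDK1 (0.44 on the log2 scale). The 2 negative ones were the cyclin genes CCNE1 (-0.28) and CCND1 (-0.78, at 3.42 CPM), so CCNE1 and CCNE2 had opposite signs.

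Of 8 partners of ORC on chromatin 4 were positive, 1 negative and 3 uncalled. Among all genes 17.3% were positive and 22.2% negative, and at or above the median level 26.6% were positive. ING5 was at 0.35, SUV39H1 at 0.29 and BAZ2A at -0.26 on the log2 scale. Of 4 genes listed as relatives or partners of geminin 2 had a row, and both were negative, MCIDAS at -0.40 and 10.1 CPM and SIX3 at -0.31 and 53.1 CPM. GMNN itself thus had the opposite sign to both.

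**Figure D4:**
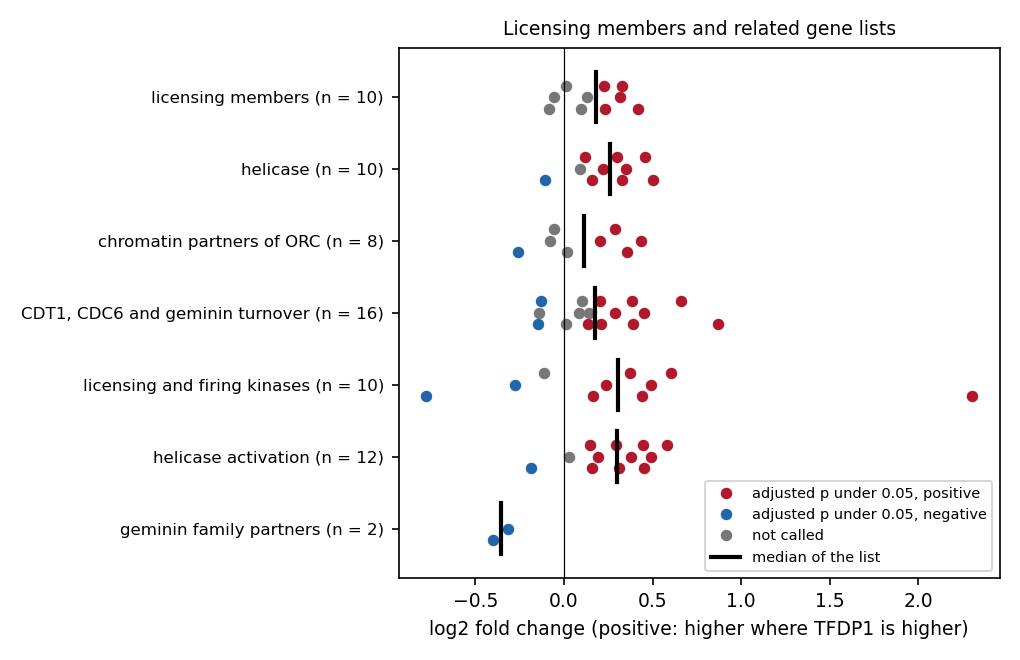
Log2 fold change (horizontal axis) of the 10 licensing genes, in the top row, and of the 6 related lists. Each point is a gene, coloured by the authors' call at an adjusted p under 0.05, and bars are medians, which run from -0.36 in the geminin family list to 0.30 in the kinase and helicase activation lists.

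The split into called and uncalled genes shifted with re-centred fold changes, whose p was adjusted over fewer rows than the authors' values imply. The deposited values do not say whether libraries were scaled by human or by fly reads. Centred instead on ribosomal protein genes, whose median over 76 genes was -0.086, ORC4 (0.18) and ORC6 (0.22) were called positive, and ORC2 and ORC5 changed sign to 0.032 and 0.0027 without a call. GMNN, ORC1, DBF4, CDC6 and CDT1 were positive and called at an adjusted p under 0.05 in every centring and trend correction tried. ORC1 ran from 0.33 to 0.41 and GMNN from 0.42 to 0.50, while CDC6 was at 0.16 and DBF4 at 0.22 with length and GC trends removed.

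**Figure D5:**
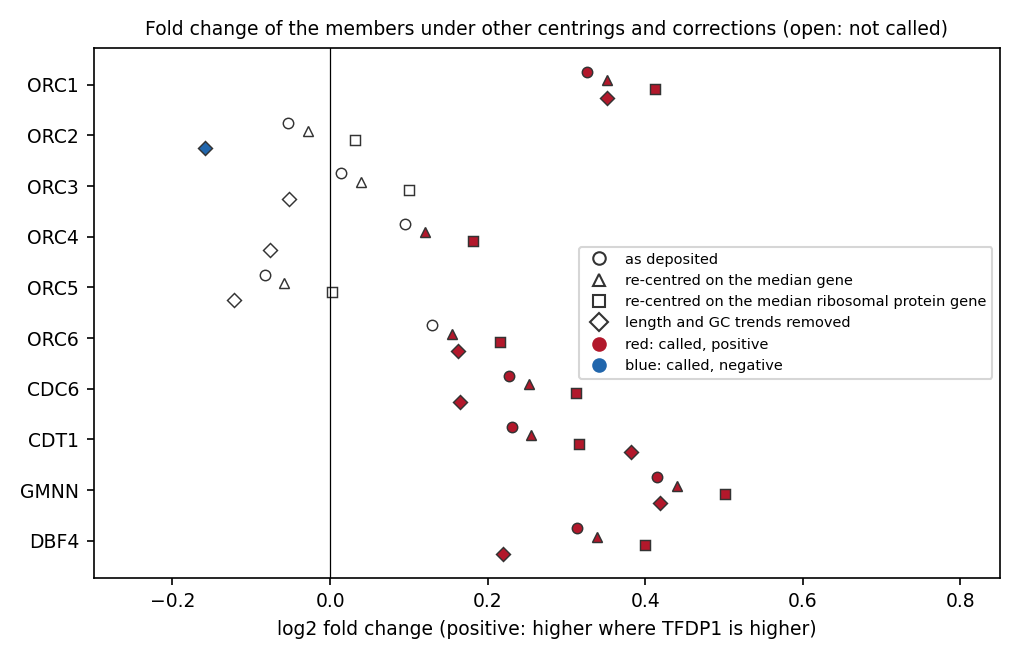
Log2 fold change (horizontal axis) of each of the 10 genes as deposited (circles), re-centred on the median gene (triangles) or on ribosomal protein genes (squares), and corrected for transcript length and GC content (diamonds). Filled symbols passed an adjusted p of 0.05. GMNN, ORC1, DBF4, CDC6 and CDT1 are filled throughout, and ORC3 and ORC5 are open throughout.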

How the data were processed

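The authors' deposited table holds a log2 fold change, a log2 CPM level, a likelihood ratio, which is a score per gene on 1 degree of freedom, a p-value and an adjusted p-value, per the file headers. Per the submitters' processing notes, reads were handled on builds hg38 and dm6 with tools that include edgeR, featureCounts, HISAT2 and Trimmomatic; no source used here gives versions, library scaling or strand settings. The table holds no values per sample, so depth and replicate spread are unknown, and the planned design took its form for a comparison: the authors' adjusted p under 0.05, split by sign, with no test across samples added. The members and lists were chosen with earlier results of these data known. Named genes are the 10 members, TFDP1, CDC7, DBF4B, the 3 genes with the smallest p of each list and every divergent or overlapping neighbour; markers of other cell types and the ORC4 and ORC6 settings were named as limits. One planned marker is not reported here. The list symbol KMT5A was matched to its older symbol. Positions and transcript lengths came from GENCODE 29 (GRCh38), matched for 93.3% of genes; promoters are RefSeq's, GRCh38.p14. Intervals use 1.96 approximate standard errors. The adjustment and error formulas were run on simulated data. There the likelihood ratio was built from the same error formula. That run therefore checks the code only, and the fit of the formula to edgeR likelihood ratios was not tested. Both re-centrings and the length and GC correction recomputed p as a normal test of the fold change over its error. Benjamini-Hochberg adjustment was then over all 15794 genes for the re-centrings and over the 14741 genes with a length for the correction. The authors' adjusted p implies 18391 rows, so calls near the threshold are not a like measure. The correction used lowess spans of 0.3. The other settings used the authors' p or adjusted p. Python 3.11.15, pandas 2.3.3, scipy 1.17.1 and statsmodels 0.14.6 were used.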

Additional observations from a re-analysis of the deposited data

How the results depend on the processing

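The 5 calls among the 10 genes were the same at an adjusted p under 0.01, with Benjamini-Hochberg adjustment over the rows analysed and with genes below the median level left out. In these settings 30.5%, 40.7% and 54.6% of all genes were called, in that order. The last share lies above the 50% of the 10 genes. With a fold of at least 1.5 added, 0 of the 10 genes, 5 of the 58 list genes and 1474 of all 15794 genes (9.33%) were called. Under Holm's adjustment 4 of the 10 (all but CDT1), 29 of the list genes and 2494 of all genes (15.8%) were called. Re-centred on the median gene or on ribosomal proteins, 7 of the 10 were positive, with backgrounds of 20.4% and 27.2% positive. The positive share of all calls was then 49.9% and 63.2%, against 43.9% as deposited. Both re-centrings adjusted p over fewer rows than the authors' values imply. This can help a call near the threshold, such as that of ORC4 on the median gene. With length and GC trends removed 6 were positive and 1 negative, against 15.7% positive and 38.6% called among all genes with a length. Signs turned on the ribosomal centre for ORC2 (0.032), ORC5 (0.0027) and RARS2 (0.029), and with the trends removed for ORC3 (-0.052), ORC4 (-0.076), DBF4B (0.0079) and MBD5 (-0.030), none of them called; ACVR2A was then called at -0.30. The cause of these shifts was not tested.

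No paired analysis was possible because the table holds no values per sample; for the same reason leaving out a replicate and a DESeq2 fit were not run.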
